A study of Homo sapiens with 6 samples.

Results

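A set of 10 genes that carry secretory signals in intestinal epithelium was followed in RNA-seq counts of T84, an established human colorectal cancer line. They are the heat-stable enterotoxin receptor GUCY2C, its ligand guanylin (GUCA2A), the kinase PRKG2, the receptors VIPR1, ADORA2B, PTGER4, CHRM3 and F2RL1, the adenylyl cyclase ADCY6 and the phosphodiesterase PDE4D. They were found by symbol, and all 10 had a row among the 58735 genes of the table. The cells carried a control short hairpin RNA (shControl, genotype given as WT, 3 libraries) or a hairpin against ACSL4 (shACSL4, genotype given as a knockdown, 3 libraries). ACSL4 activates long-chain polyunsaturated fatty acids. All libraries came from the same line, grown in DMEM/F12 with fetal bovine serum. The labels do not say how many hairpins were used, whether cells were cloned, or whether the libraries within a group stem from different cultures. The p-values therefore measure the spread between these libraries, which may be technical.

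As background, crypt-type epithelial cells such as T84 secrete chloride and water when cyclic AMP, cyclic GMP or calcium rises. VIP, adenosine and prostaglandin E2 act on Gs-coupled receptors that switch on adenylyl cyclase, while guanylin and bacterial heat-stable toxin act on the guanylyl cyclase GUCY2C. Acetylcholine and proteases act on receptors coupled to Gq and calcium. Protein kinase A and cyclic GMP-dependent kinase pass the cyclic nucleotide signal to the CFTR chloride channel, and phosphodiesterases end it.

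The libraries held 14740383 to 17620630 reads assigned to genes. ACSL4 fell from 73.2 ± 1.98 to 10.2 ± 0.979 CPM (reads as a rate of the library's scaled size; SD, n = 3), a log2 fold change of -2.85. Changes were tested with edgeR's quasi-likelihood test on all genes that passed a filter on low counts, and a gene was called where its Benjamini-Hochberg adjusted p was below 0.05. Every log2 fold change compares shACSL4 with shControl. Of 15694 genes tested, 47.2% were called, 24.0% higher and 23.1% lower, and the median log2 fold change was 0.01. The 12 colonocyte markers all passed the filter (summed level 8036 to 9274 CPM in shControl and 8961 to 10329 CPM in shACSL4), and 6 rose and 3 fell. Of the leukocyte markers 4 of 9 passed the filter and 3 fell, with a summed level of 24.9 to 38.9 CPM in shControl and 8.27 to 11.5 CPM in shACSL4. PTPRC had 23 and 7 reads in all and CD3E none. All 3 tested neuron and enteroendocrine markers of 8 rose (summed level 17.4 to 19.5 and 26.4 to 30.7 CPM), with no read or a few for NEUROD1 and the ELAVL genes. Fibroblast markers summed to at most 4.37 CPM and endothelial markers to at most 5.02 CPM. The part of these markers in the results was not tested.

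Of the 10 genes, 6 changed. VIPR1, PDE4D, CHRM3 and GUCY2C rose and PTGER4 and ADORA2B fell, F2RL1 and ADCY6 were not called, and GUCA2A and PRKG2 had too few reads to pass the filter. VIPR1 moved most, about 3.05-fold. The 8 tested genes had at least 48 counts in every library. The share called, 6 of 8 (75.0%), stands beside 47.2% of all genes tested, which include genes with fewer counts. Under a filter at a mean of 50 counts, which the 8 genes pass, 6354 of 11868 genes were called. In the same 6 genes the CPM values of the groups did not overlap, as they did not in 55.1% of all genes tested.

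**Figure D1:**
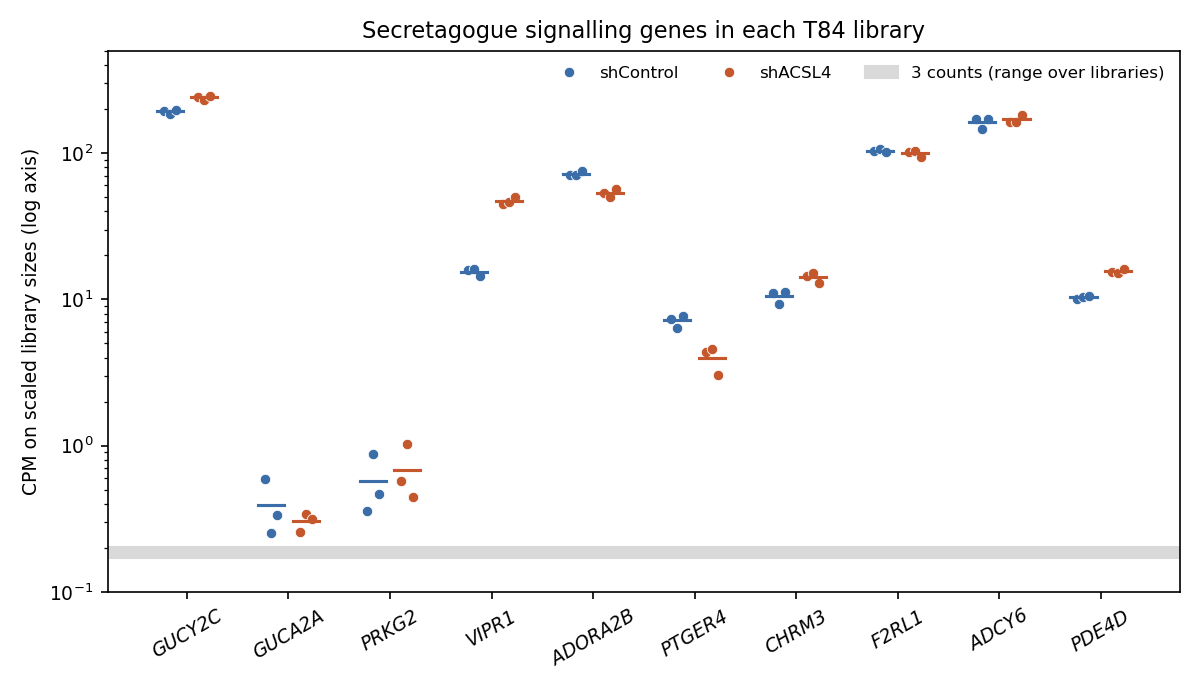
CPM on scaled library sizes (log axis) of the 10 genes in each library; points are libraries, lines are group means, and the grey band is the level of 3 counts (0.171 to 0.202 CPM). VIPR1, PDE4D, CHRM3 and GUCY2C lie higher in all shACSL4 libraries, ADORA2B and PTGER4 lie lower, and GUCA2A and PRKG2 lie near the band.

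Levels of different genes were compared on the authors' FPKM values (fragments divided by gene length and 1 size per library). That size is not the total count. It was 16858200 in shControl replicate 1 and 16074000 in shACSL4 replicate 3, against 17620630 and 14740383 reads assigned to genes. In shControl the order was GUCY2C (45.8 ± 1.12 FPKM), F2RL1 (34.9 ± 1.19), ADORA2B (28.2 ± 0.823), ADCY6 (19.2 ± 1.60), VIPR1 (2.07 ± 0.141), PTGER4 (1.80 ± 0.163), CHRM3 (0.859 ± 0.0883), GUCA2A (0.689 ± 0.315), PDE4D (0.629 ± 0.0157) and PRKG2 (0.111 ± 0.0539; SD, n = 3 for each). The values of VIPR1 and PTGER4 overlapped, as did those of GUCA2A with CHRM3 and with PDE4D. The other neighbours in this order did not overlap. In shACSL4 the first 5 places were held by the same genes, but ADORA2B (20.6 ± 1.21 FPKM) and ADCY6 (19.9 ± 1.27) overlapped, and VIPR1 (6.27 ± 0.336) lay apart from CHRM3 (1.14 ± 0.0939) and PTGER4 (0.991 ± 0.207), which overlapped each other, as did PTGER4 and PDE4D (0.938 ± 0.0272). PDE4D has 29 annotated transcripts with 27 different starts, and its FPKM divides by all 16308 exonic bases. Its FPKM therefore understates a short form, and gene counts do not say which form was read. The same limit applies to the ranks of other genes with several transcripts. Among them are VIPR1 (17 transcripts, 7384 exonic bases), CHRM3 (7 transcripts, 12170 bases) and ADCY6 (9 transcripts, 8410 bases).

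GUCY2C makes cyclic GMP when guanylin, uroguanylin or heat-stable toxin binds, and was the highest of the 10 genes. It lies on chromosome 12 (GRCh38, 14612632 to 14696585, minus strand). In the shControl libraries, in replicate order as in all such lists here, it stood at 194, 186 and 197 CPM, and in the shACSL4 libraries at 242, 232 and 245 CPM. The lowest shACSL4 library was above the highest shControl library. The change was small, 1.25-fold (log2 fold change 0.32, SE 0.08, adjusted p = 0.00437 in edgeR's quasi-likelihood test). It shares 147 exonic bases with PLBD1-AS1 on the opposite strand, which had 107 reads in shControl and 133 in shACSL4 in all.

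The ligands and the kinase of this arm were close to the limit of detection. GUCA2A, the guanylin precursor (chromosome 1, 42162691 to 42164718, minus strand), had 10, 4 and 5 counts in shControl and 4, 6 and 5 in shACSL4. GUCA2B, the uroguanylin precursor next to it, had 1 read in all 6 libraries together. PRKG2, the membrane-bound cyclic GMP-dependent kinase of enterocytes (chromosome 4, 81087370 to 81215117, minus strand), had 6, 14 and 7 counts in shControl and 9, 18 and 7 in shACSL4. Fitted without a filter, the log2 fold change was 0.26 for PRKG2 (95% interval -0.82 to 1.33, adjusted p = 0.784) and -0.38 for GUCA2A (-1.85 to 1.09, 0.765), by edgeR. Changes within these intervals are not excluded. Of the 16 genes of the cyclic GMP list, 2 were tested, GUCY2C and the natriuretic peptide receptor NPR2, which was not called (-0.24). The soluble guanylyl cyclase genes GUCY1A1 and GUCY1B1 had no read, so that each library allows up to 0.171 to 0.202 CPM. The kinase gene PRKG1 had 2, 1 and 4 counts in shControl and 9, 11 and 10 in shACSL4. It did not pass the filter, and its adjusted p without one was 0.0503 in edgeR and 0.0883 in DESeq2. Leaving out shControl replicate 3 or shACSL4 replicate 1 or 3 let 4 genes of the list pass and made the called rises 2, GUCY2C and PRKG1 (adjusted p = 0.0128 to 0.035 for PRKG1 in edgeR). NPR1, another natriuretic peptide receptor, with 4 and 24 reads in all, was called higher without a filter (adjusted p = 0.0446 in edgeR) and not called with DESeq2 (0.0721). PDE5A, which degrades cyclic GMP, was not called (21.2 ± 3.33 and 18.6 ± 2.02 CPM; -0.19; SD, n = 3).

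VIPR1 is the receptor for vasoactive intestinal peptide and couples to Gs. It lies on chromosome 3 (42489299 to 42537573, plus strand) with 17 annotated transcripts. The control libraries held 15.9, 16.0 and 14.3 CPM, the shACSL4 libraries 44.8, 46.6 and 49.8 CPM. The groups lay far apart beside the spread within each. The log2 fold change was 1.61 (SE 0.10, 95% interval 1.40 to 1.82, adjusted p = 2.26e-09 in edgeR's quasi-likelihood test). The median change of the 50 tested genes around it was 0.29. VIPR1-AS1, on the opposite strand, shares 844 exonic bases with VIPR1 and had 71 reads in shControl and 170 in shACSL4 in all, against 735 and 2303 for VIPR1. Whether counting used strand is not stated, so reads in the shared bases cannot be told apart. The related receptor genes VIPR2 and ADCYAP1R1 had no read in any library.

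Both start regions found for VIPR1 are shown because it changed most and the gene counts do not tell its starts apart, and that of ADORA2B is shown beside them because it moved the other way. The sequences are from RefSeq (GRCh38.p14), lie within 250 bases before an annotated start, and are cut where GENCODE 29 annotates an exon. The first stretch is chr3:42489049-42489298 (plus strand), the second chr3:42502393-42502611 (plus strand) and the third chr17:15944880-15944916 (plus strand). Capitals mark TGACG, the core of the cyclic AMP response element, and ACGTG or GCGTG, the core bound by hypoxia-inducible factors, on either strand.
VIPR1 upstream start: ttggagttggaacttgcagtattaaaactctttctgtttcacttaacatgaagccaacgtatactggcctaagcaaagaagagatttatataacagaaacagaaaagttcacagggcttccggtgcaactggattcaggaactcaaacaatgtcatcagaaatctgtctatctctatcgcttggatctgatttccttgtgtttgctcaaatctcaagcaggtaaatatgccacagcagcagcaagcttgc
VIPR1 downstream start: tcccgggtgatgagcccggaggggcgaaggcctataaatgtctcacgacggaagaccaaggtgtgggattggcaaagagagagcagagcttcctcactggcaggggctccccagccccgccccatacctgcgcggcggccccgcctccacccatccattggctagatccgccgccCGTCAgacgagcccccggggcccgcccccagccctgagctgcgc
ADORA2B start: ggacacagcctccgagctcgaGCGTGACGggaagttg
The whole 250-base window of the upstream VIPR1 start held neither motif and had a GC content of 40.4%, and that of the downstream start had 69.2%. The downstream window held TGACG once, on the minus strand, 75 bases before the start. In ADORA2B a GCGTG begins 229 bases and a TGACG 226 bases before the start, and they share letters. Of all 35116 windows of this length in the table, 21.2% held TGACG and 43.2% held ACGTG or GCGTG. The full element TGACGTCA was in 1.65% of all windows and in none of the 16 windows found for 8 of the 10 genes. These are matches of letters, and no binding was measured.

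ADORA2B, the low-affinity adenosine receptor, couples to Gs and is the adenosine receptor T84 cells are known for. It lies on chromosome 17 (15944917 to 15975746, plus strand). The 3 shControl values were 70.7, 71.1 and 75.5 CPM, and the 3 shACSL4 values 53.6, 49.9 and 56.4 CPM. Every shACSL4 library was below every shControl library. The log2 fold change was -0.44 (SE 0.09, adjusted p = 0.00047 in edgeR's quasi-likelihood test). Of the summed FPKM of the 4 adenosine receptor genes, ADORA2B held 99.9% in shControl and 99.6% in shACSL4. ADORA2A had 3 and 16 reads in all, and ADORA1 and ADORA3 had none.

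The list of genes that supply or remove adenosine moved in both directions: of 13 tested, 4 rose and 5 fell, with a median of -0.27. Calls made up 69.2% of it, beside 47.2% of all genes tested (24.0% higher, 23.1% lower). NT5E, which makes adenosine from AMP outside the cell, went from 89.1 ± 5.18 to 74.1 ± 6.24 CPM (-0.27, SE 0.09, adjusted p = 0.022 in edgeR; SD, n = 3). That call was lost with library size alone as scaling (-0.15, adjusted p = 0.185) and without shControl replicate 1 or 3 or shACSL4 replicate 2 or 3 (adjusted p = 0.0581 to 0.0834). ENPP3, which hydrolyses extracellular nucleotides, fell (-2.73), as did adenosine deaminase ADA (-1.89). ENPP1 rose (1.41), from 3.44 ± 0.102 to 9.18 ± 0.686 CPM (SD, n = 3).

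PTGER4 encodes the Gs-coupled prostaglandin E2 receptor EP4 (chromosome 5, 40679498 to 40693735, plus strand). Control libraries gave 7.38, 6.40 and 7.73 CPM and shACSL4 libraries 4.36, 4.56 and 3.04 CPM. The groups did not overlap, and shACSL4 replicate 3 was the lowest of the 6 libraries. The log2 fold change was -0.84 (SE 0.20, adjusted p = 0.00216 in edgeR's quasi-likelihood test), and -0.68 without shACSL4 replicate 3. PTGER2, which encodes the other Gs-coupled prostaglandin E2 receptor EP2, fell from 11.96 ± 0.606 to 1.38 ± 0.362 CPM (-3.12, SE 0.21; SD, n = 3). The summed FPKM of the 4 prostaglandin E2 receptor genes went from 6.77 ± 0.124 to 1.67 ± 0.257. PTGER2 held 71.0% ± 2.92 of it in shControl and 32.9% ± 5.66 in shACSL4, and PTGER4 26.6% ± 2.63 and 59.3% ± 6.38 (SD, n = 3). PTGER4 was thus below PTGER2 per length in shControl and above it in shACSL4. PTGER1 and PTGER3 had at most 11 reads in a group.

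Most other receptors of this kind had too few reads to be tested. Of 26 genes in the list of Gs-coupled receptors, which also holds GPR35 and ADGRG1 although they couple mainly to other G proteins, 17 did not pass the filter, and 10 of the 26 had no read. Of the 9 tested, 3 rose and 4 fell, with a median of -0.44, the value of ADORA2B, beside 0.01 for all genes tested. VIPR1, GPR35 and MC1R made up the rises, and PTGER2, ADRB1, PTGER4 and ADORA2B the falls. Apart from VIPR1, ADORA2B and PTGER4, described above, 6 were tested, of which 2 rose and 2 fell. The shares over all genes tested were 24.0% higher and 23.1% lower. GPR35 and MC1R were named after their values were seen, as was ADRB1.

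CHRM3 is the muscarinic acetylcholine receptor that raises calcium in these cells (chromosome 1, 239386565 to 239915452, plus strand). Its values were 11.1, 9.23 and 11.2 CPM (shControl) and 14.4, 15.05 and 12.8 CPM (shACSL4). The groups did not overlap, but the gap between them was narrow. The log2 fold change was 0.42 (SE 0.14, 95% interval 0.14 to 0.71, adjusted p = 0.0171 in edgeR's quasi-likelihood test). The call was the least stable of the 6. It was lost with DESeq2 (adjusted p = 0.0542), with limma-trend on log2(FPKM + 1) (0.20, adjusted p = 0.0678), without shControl replicate 2 (0.33, 0.0613) and without shACSL4 replicate 1 (0.41, 0.0503) or 2 (0.37, 0.0699). CHRM1, another Gq-coupled muscarinic receptor, rose from 0.669 ± 0.0913 to 2.49 ± 0.169 CPM (1.88, SE 0.34; SD, n = 3) on 32 and 122 reads. CHRM3 shares 269 exonic bases with CHRM3-AS2 on the opposite strand, which had 4 and 16 reads in all. CHRM2 had no read, and CHRM4 and CHRM5 had 8 to 12 reads in a group.

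F2RL1 encodes the protease-activated receptor PAR2, which trypsin-like proteases switch on by cutting its own end (chromosome 5, 76818933 to 76835315, plus strand). It was at 104, 107 and 101 CPM under the control hairpin and at 102, 103 and 94.5 CPM under the ACSL4 hairpin. The groups overlapped, and the log2 fold change was -0.05 (SE 0.08, 95% interval -0.23 to 0.12, adjusted p = 0.625 in edgeR). Changes within these bounds in either direction are not excluded. With library size alone as scaling the estimate was 0.07 (adjusted p = 0.5). F2RL1 held 98.3% ± 0.285 of the summed FPKM of the protease-activated receptor genes in shControl and 97.1% ± 0.479 in shACSL4 (SD, n = 3).

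Among genes for proteases that cut PAR2 and for their inhibitors, 12 were tested. Of these, 7 fell and 3 rose (median -0.40), beside 23.1% lower and 24.0% higher of all genes tested. Proteases and inhibitors are counted together here, so these numbers do not say whether cleavage of PAR2 changed. Cathepsin S (CTSS) fell from 118 ± 6.51 to 43.3 ± 1.72 CPM (-1.44, SE 0.09) and the matriptase inhibitor SPINT1 from 371 ± 4.24 to 256 ± 20.6 CPM (-0.53, SE 0.09; SD, n = 3). SERPINA1, the alpha-1-antitrypsin gene, fell by 2.07 on the log2 scale. The rises were the proteases KLK5, KLK6 and PRSS3, named after their values were seen. Matriptase itself, ST14, named after its values were seen, fell from 886 ± 47.1 to 609 ± 33.7 CPM (-0.54; SD, n = 3).

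Of 11 tested receptors coupled to Gq and calcium, 6 rose and 1 fell, with a median of 0.68. The list counts CHRM3 and F2RL1 again, and of the 9 others 5 rose and 1 fell. The shares over all genes tested were 24.0% higher and 23.1% lower. The fall was P2RY1, an ADP receptor, from 29.2 ± 4.62 to 12.5 ± 1.10 CPM (-1.23, SE 0.13). The histamine receptor HRH1 rose from 4.94 ± 0.492 to 11.1 ± 1.95 CPM (1.16, SE 0.17; SD, n = 3). The count of falls was 2 without shControl replicate 2 or shACSL4 replicate 2. In the list of Gi-coupled receptors and GPR39, 1 of 5 tested genes was called. It was the somatostatin receptor SSTR1, at 18.9 ± 1.13 and 9.74 ± 0.840 CPM (-0.96, SE 0.13; SD, n = 3). With 7 of the 14 alternatives 2 genes of that list were called lower, and with library size alone 2 were called higher.

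**Figure D2:**
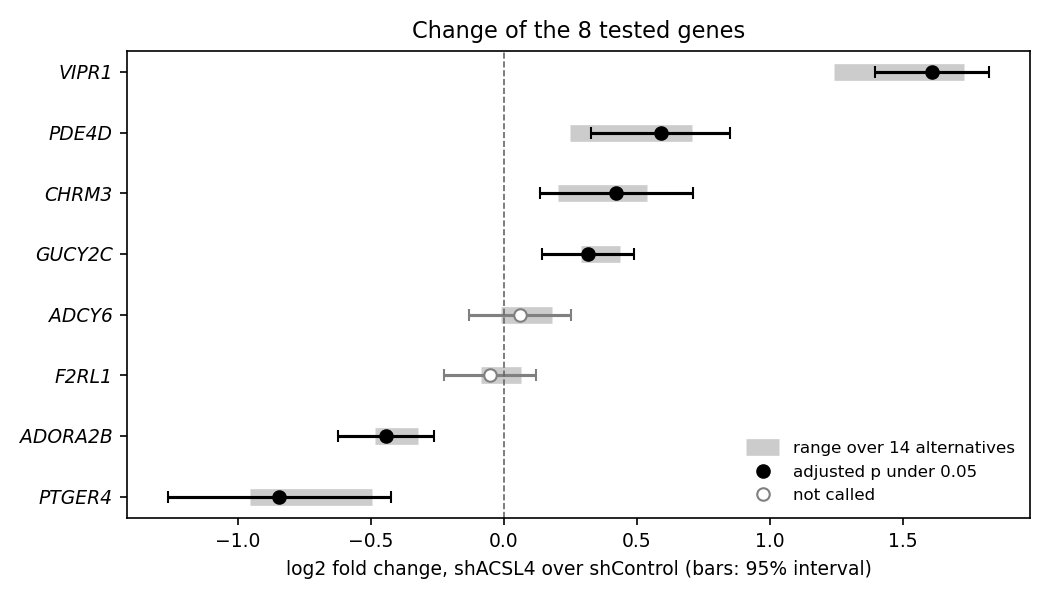
Log2 fold change of shACSL4 over shControl for the 8 tested genes, with 95% intervals as thin bars and the range over the 14 alternative settings in grey; filled points are called. The grey range of the 6 called genes stays on 1 side of 0, and those of ADCY6 (-0.01 to 0.18) and F2RL1 (-0.09 to 0.07) cross it.

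ADCY6 is an adenylyl cyclase that calcium inhibits (chromosome 12, 48766194 to 48789037, minus strand). The shControl values were 171, 146 and 171 CPM, those of shACSL4 164, 163 and 183 CPM. The groups overlapped, with the lowest library, shControl replicate 2, and the highest, shACSL4 replicate 3, at the ends. The log2 fold change was 0.06 (SE 0.09, 95% interval -0.13 to 0.25, adjusted p = 0.601 in edgeR). ADCY6 held 50.9% ± 0.0374 of the summed FPKM of the 10 adenylyl cyclase genes in shControl and 51.7% ± 4.20 in shACSL4, followed by ADCY3 at 34.1% ± 0.250 and 31.2% ± 2.23 (SD, n = 3). The summed FPKM was 37.8 ± 3.11 and 38.5 ± 0.691. Of 5 cyclases tested, 1 was called, ADCY7, which rose from 21.0 ± 2.12 to 32.2 ± 1.75 CPM (0.62, SE 0.11; SD, n = 3). Over all genes tested 47.2% were called. ADCY3 (-0.09, SE 0.10) and ADCY9 (-0.13, SE 0.15) were not called. Leaving out 1 library at a time gave -0.17 (without shControl replicate 2) to -0.02 (without shACSL4 replicate 3) for ADCY3. For ADCY9 it gave -0.28 (without shACSL4 replicate 1) to 0.08 (without shACSL4 replicate 3), and ADCY3 was at 0.02 with library size alone as scaling.

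The G protein that joins the receptors to the cyclase, GNAS, was at 874 ± 17.9 and 847 ± 21.5 CPM (-0.05, adjusted p = 0.7 in edgeR). Of 18 G protein genes tested, 2 rose and 7 fell. Calls in either direction were thus 9 of 18, beside 47.2% of all genes tested (24.0% higher, 23.1% lower). With library size alone as scaling 4 rose and 4 fell, and without shControl replicate 2 the rises were 4. With limma-trend and under a filter at a mean of 50 counts 1 rose. GNAI1, an inhibitory alpha subunit, fell from 36.4 ± 4.54 to 10.7 ± 0.845 CPM (-1.76, SE 0.12; SD, n = 3). Its share of the summed FPKM of the 3 GNAI genes went from 15.1% ± 1.07 to 4.51% ± 0.271, while the sum was 9.87 ± 0.588 and 9.66 ± 0.546 FPKM. GNA11, a Gq-type subunit, rose (0.45, SE 0.08), and GNA13 fell (-0.50, SE 0.10).

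PDE4D degrades cyclic AMP (chromosome 5, 58969038 to 60522120, minus strand). Values of 10.0, 10.4 and 10.6 CPM in shControl stood against 15.4, 15.2 and 16.1 CPM in shACSL4. The groups were tight and did not overlap. PART1, on the opposite strand, shares 227 exonic bases with it and had 7 and 0 reads in all. The rise was 1.51-fold (log2 fold change 0.59, SE 0.12, adjusted p = 0.000922 in edgeR's quasi-likelihood test). On log2(FPKM + 1), a scale that understates the changes of low genes, limma-trend gave 0.25 for PDE4D, -0.50 for PTGER4 and 1.24 for VIPR1, all still called.

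Of 11 phosphodiesterase genes tested, 2 rose and 2 fell. Calls made up 36.4% of them, beside 47.2% of all genes tested (24.0% higher, 23.1% lower). The list counts PDE4D again, and of the 10 others 1 rose and 2 fell. PDE8A, a phosphodiesterase with high affinity for cyclic AMP, rose (71.6 ± 5.13 to 94.8 ± 3.04 CPM; 0.40, SE 0.09; SD, n = 3). PDE3A fell from 20.9 ± 1.17 to 7.98 ± 1.17 CPM (-1.39, SE 0.14) and PDE3B from 57.6 ± 9.16 to 40.01 ± 4.32 CPM (-0.53, SE 0.12; SD, n = 3). Both belong to the class that cyclic GMP inhibits. PDE3B was named after its values were seen. PDE4A (16.6 ± 2.35 and 15.6 ± 2.06 CPM; SD, n = 3) and PDE4B were not called. PDE4B had 46 and 47 reads in all, and its log2 fold change of 0.01 (SE 0.48) went to -0.46 without shACSL4 replicate 1 and to 0.44 without shACSL4 replicate 2. The summed FPKM of the 23 phosphodiesterase genes was 38.8 ± 2.19 and 37.1 ± 1.83, in which the share of PDE4D was 1.63% ± 0.125 and 2.53% ± 0.0998 and that of PDE8A 23.3% ± 0.538 and 31.9% ± 0.726 (SD, n = 3).

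**Figure D3:**
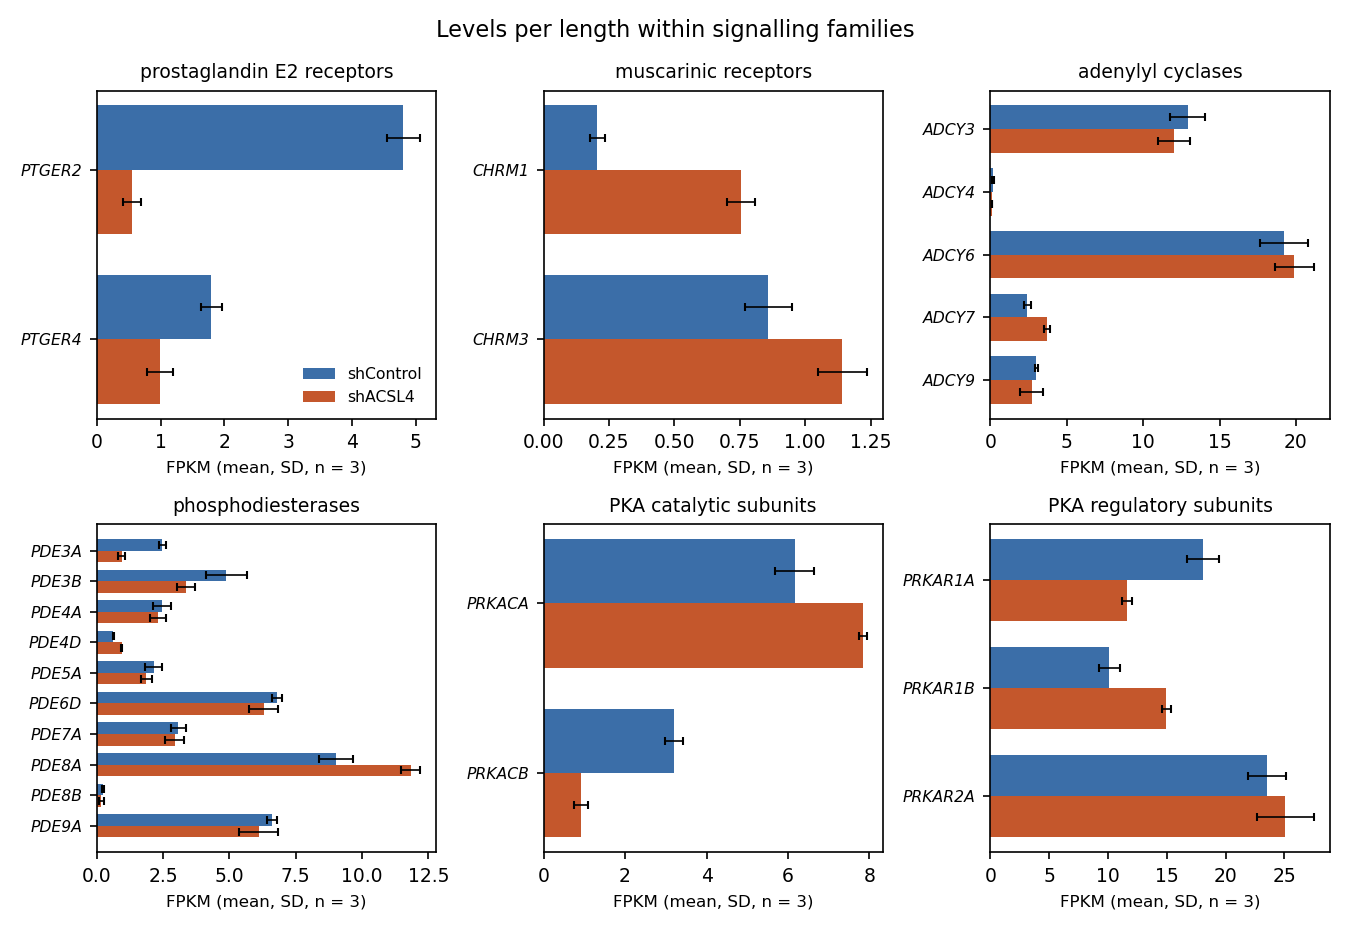
FPKM (bars: mean, error bars: SD, n = 3) of genes with at least 100 reads in all, within 6 families; axes differ between panels and start at 0. PTGER2 and PTGER4 are lower in shACSL4, ADCY6 has like bars in both groups, PDE4D and PDE8A are higher, and PRKACA and PRKACB differ in opposite directions.

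Protein kinase A is the main cyclic AMP effector of secretion. Its catalytic subunit genes moved apart: PRKACA rose (38.1 ± 2.72 to 48.9 ± 0.704 CPM; 0.36, SE 0.09, adjusted p = 0.00348 in edgeR) and PRKACB fell (21.7 ± 1.41 to 6.25 ± 1.15 CPM; -1.79, SE 0.15; SD, n = 3). The share of PRKACA in the summed FPKM of the 3 catalytic genes went from 65.5% ± 0.622 to 89.6% ± 1.74, while the sum was 9.40 ± 0.674 and 8.75 ± 0.204 FPKM. Among regulatory subunits PRKAR1A fell (-0.63, SE 0.09) and PRKAR1B rose (0.58, SE 0.09), and the summed FPKM of the 4 genes was 51.8 ± 0.967 and 51.8 ± 3.07 (SD, n = 3). The median change of the genes around PRKAR1A was -0.29. Of all 14 cyclic AMP effector genes tested, 4 rose and 4 fell, and with library size alone 7 rose. The 4 rises and 4 falls made up 57.1% of the list, beside 47.2% called over all genes tested (24.0% higher, 23.1% lower).

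Anchoring proteins place the kinase beside its targets. Of 14 genes for A-kinase anchors and apical scaffolds, 3 rose and 4 fell. Calls in either direction were thus 7 of 14, beside 47.2% of all genes tested (24.0% higher, 23.1% lower). AKAP12 rose from 8.74 ± 0.520 to 63.7 ± 19.3 CPM (2.86, SE 0.18) and AKAP9 from 101 ± 19.3 to 177 ± 21.8 CPM (0.80, SE 0.12; SD, n = 3). SLC9A3R2 (NHERF2), a scaffold under the apical membrane, fell (-0.73, SE 0.10), whereas SLC9A3R1 (NHERF1), named after its values were seen, was at 85.8 ± 8.21 and 88.6 ± 1.65 CPM and was not called.

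Of 14 tested genes for receptor kinases, arrestins and RGS proteins, which switch receptors and G proteins off, 8 rose and 3 fell (median 0.41). The shares over all genes tested were 24.0% higher and 23.1% lower. RGS16 rose from 1.22 ± 0.0631 to 7.54 ± 1.61 CPM (2.62, SE 0.24), GRK5 from 1.73 ± 0.313 to 5.67 ± 0.319 CPM (1.70, SE 0.23) and the arrestin ARRB1 from 24.6 ± 0.445 to 42.7 ± 3.37 CPM (0.79, SE 0.10; SD, n = 3). GRK2, named after its values were seen, had the highest CPM of the receptor kinases and fell from 417 ± 28.5 to 294 ± 9.95 CPM (-0.50, SE 0.09; SD, n = 3). Of 25 genes for phospholipase C and calcium release, 7 rose and 5 fell (11 rose with library size alone). The 7 rises and 5 falls made up 48.0% of that list, beside 47.2% called over all genes tested. ATP2A3, a calcium pump of the endoplasmic reticulum, rose (2.00, SE 0.18), while PLCD1 (-0.92) and PRKCD (-0.64) fell.

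Genes known to be induced through the cyclic AMP-responsive factor CREB did not move together. Of 17 tested, 7 rose and 4 fell, with a median of 0.02, and PDE4D is among the rises. Calls made up 64.7% of this list, beside 47.2% of all genes tested (24.0% higher, 23.1% lower). AREG, an EGFR ligand, went from 159 ± 10.7 to 267 ± 33.4 CPM (0.74, SE 0.10), and ATF3 changed by 0.85. PCK1, the gluconeogenic enzyme, fell from 49.2 ± 3.88 to 8.65 ± 2.27 CPM (-2.51, SE 0.15; SD, n = 3).

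**Figure D4:**
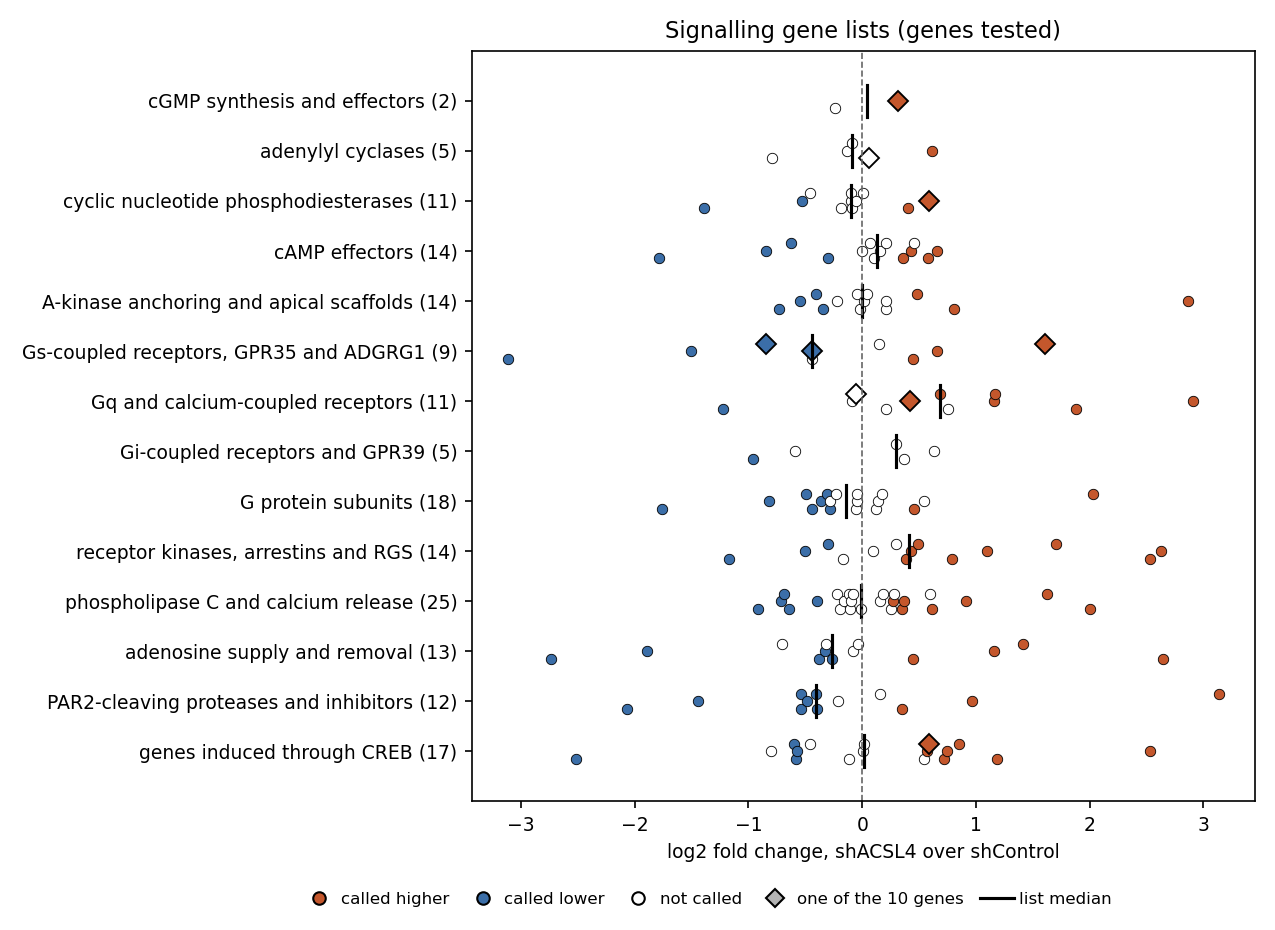
Log2 fold change of shACSL4 over shControl for every tested gene of the 14 signalling lists, with the number tested in brackets, list medians as vertical lines and the members of the 10-gene set as diamonds. Most lists hold both rises and falls; receptors coupled to Gq and calcium have a median of 0.68 and PAR2-cleaving proteases and inhibitors one of -0.40.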

How the data were processed

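The authors deposited a table of unnormalized counts for each gene in 3 shControl and 3 shACSL4 libraries, per the file headers. The submitters' processing notes name CASAVA, HISAT2 and GRCh38 (hg38). The counting tool is not given in the sources used here. The authors also deposited FPKM values, which equal counts over gene length and 1 size per library, a group mean signal, log2 fold changes and p-values; only counts and FPKM were used. Columns with the prefix NC were taken as shControl, the only other group, and matched by number.

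Genes were kept by filterByExpr, scaled by TMM and compared with edgeR 4.0.16 (quasi-likelihood, no covariates; R 4.3.3), adjusted over all genes tested; SE is the log2 fold change over the root of F. The edgeR steps were also run on simulated counts with few genes changed, evenly up and down. In these data 47.2% of genes were called, so that run does not measure the error rate here. At this depth 3 counts are 0.171 to 0.202 CPM; such limits cover counting error only. Running medians used 25 tested genes on each side. Alternatives were DESeq2 1.42.0, other scalings and filters, limma 3.58.1, the replicate number as a block, and leaving out each library.

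The 10 genes and the lists (313 symbols; 3 matched through an older name; PDE11A and RGS5, with 2 rows each, left out) were chosen with earlier results of these data known. Named were ACSL4, the 10 genes, the 3 called genes of lowest adjusted p in each pathway list, and a fixed set (GUCA2B, GUCY1A1, PRKG1, GNAS, PRKACA, PRKACB, ADCY9, ADCY3, PDE5A, PDE4A, PDE4B, NT5E); all other genes were named after their values were seen.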

Additional observations from a re-analysis of the deposited data

How the results depend on the processing

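Over the 14 alternatives, VIPR1, PDE4D, GUCY2C, ADORA2B and PTGER4 kept their direction and stayed called, and CHRM3 kept its direction and was called in 9. The rises among the 10 genes were therefore 3 or 4, and the falls 2 in every alternative. Genes called in all ranged from 6122 to 7251 when a library was left out, with 16015 to 16407 tested. They numbered 6638 of 34061 fitted with DESeq2 and 6354 of 11868 under a filter at a mean of 50 counts, beside 7400 of 15694. With library size alone the median of all genes moved from 0.01 to 0.13, and 65.6% of calls were higher against 50.9%. With the replicate number as a block, 7414 genes were called, and the 10 genes gave the same 4 rises and 2 falls. Deviations of same-numbered libraries correlated at 0.06, -0.00 and 0.01, and not every library correlated best with its own number. No pairing by number was seen, but these correlations cannot say whether same-numbered libraries were handled together. Depth limits GUCA2A and PRKG2, whose intervals span changes in both directions.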
